A study of Mus musculus with 20 samples.

Results

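The Hox genes were examined as 1 module of 38 members, out of 45706 genes counted in each sample of the study. Membership is set by gene name, as a list of genes of the 4 Hox clusters, and the rule uses no measured value. In the GRCm38 annotation the list holds 10 members of cluster A on chromosome 6 (52162417 to 52260880), 10 of cluster B on chromosome 11 (96194316 to 96368256), 9 of cluster C on chromosome 15 (102921103 to 103036852) and 9 of cluster D on chromosome 2 (74668310 to 74765142). The study asked what loss of cathepsin D, a lysosomal aspartic protease encoded by Ctsd, does to mammary carcinomas and to tumor cells derived from them. It measured RNA by sequencing in 8 tumors and 12 cell samples, which fall into 6 groups. All mice carried the MMTV-PyMT transgene, in which the mouse mammary tumor virus promoter drives the polyoma middle T oncogene in mammary epithelium, on a C57BL/6 N background.

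The control tumor group held 4 tumors of CTSD-competent mice, which have untargeted or loxP-flanked Ctsd alleles and which the labels call wild type. The MMTV-cre;Ctsd-/- tumor group held 4 tumors in which the same viral promoter drives cre recombinase, so that Ctsd is deleted in mammary epithelium and other cells of the tumor are not targeted. All 8 tumors came from mice of 18 weeks. The 4 cell groups, of 3 samples each, were spontaneously immortalized tumor cells of 1 Ctsd+/+ line and 1 Ctsd-/- line. Both lines were kept in starvation medium with 1% fetal calf serum (FCS), either for 10 days (1% FCS) or for 12 weeks (1% FCS LT, long term). Each genotype in culture is 1 line, so that a difference between the genotypes and a difference between these lines cannot be told apart.

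Hox genes encode homeodomain transcription factors that give cells their position along the body axis during development. Within a cluster the genes lie side by side in an order that matches where along the head-to-tail axis each is switched on, and genes with the same number in different clusters are paralogs. In adult cells the pattern is largely kept by chromatin, with Polycomb complexes holding silent stretches and trithorax complexes holding active ones. In the mammary gland several members take part in gland development, and cells from different parts of the body keep different Hox patterns in culture.

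Total counts assigned to genes lay between 49725437 and 64291587 per tumor and between 33622831 and 40239762 per cell sample. Levels are given as CPM, the counts of a gene scaled to a common library size with trimmed mean factors, separately for tumors and cells, and 3 counts or fewer in a sample was taken as the detection floor. Ctsd itself lay between 1780 and 2616 CPM in control tumors and between 360 and 1294 CPM in MMTV-cre;Ctsd-/- tumors. In Ctsd-/- cells it lay between 114 and 192 CPM, against 1266 to 4198 CPM in Ctsd+/+ cells, so that its level followed the labels in both materials. The 4 control tumors and the 4 MMTV-cre;Ctsd-/- tumors carry different run numbers, so that genotype and run cannot be told apart in tumors. Among cells, 8 of the 12 samples carry 1 run number shared by all 4 groups.

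The 4 clusters were used very unequally. A member was called expressed in a group when it reached 1 CPM or more in every sample. In 1% FCS Ctsd+/+ cells 8 of the 38 members were expressed, and all 8 belong to cluster A: Hoxa2, Hoxa3, Hoxa4, Hoxa5, Hoxa6, Hoxa7, Hoxa9 and Hoxa10. In 1% FCS Ctsd-/- cells 7 members were expressed, of which 6 belong to cluster B (Hoxb2, Hoxb3, Hoxb4, Hoxb5, Hoxb6 and Hoxb9) and 1 to cluster D (Hoxd8). After long-term culture 3 members were expressed in Ctsd+/+ cells (Hoxa5, Hoxa7 and Hoxa10) and 9 in Ctsd-/- cells, the same 7 as before together with Hoxa5 and Hoxa7. In control tumors no member was expressed by this measure, and in MMTV-cre;Ctsd-/- tumors 1 was, Hoxb4. The members Hoxa11, Hoxd1, Hoxd3, Hoxd11, Hoxd12 and Hoxd13 were at the floor in all 6 groups, although only 37.2% of the exon length of Hoxd3 is free of other annotated genes, so that its reads may have been left unassigned. A further 7 members (Hoxb1, Hoxc8, Hoxc10, Hoxc11, Hoxc12, Hoxd9 and Hoxd10) were at the floor in all 4 cell groups but not in both tumor groups.

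**Figure D1:**
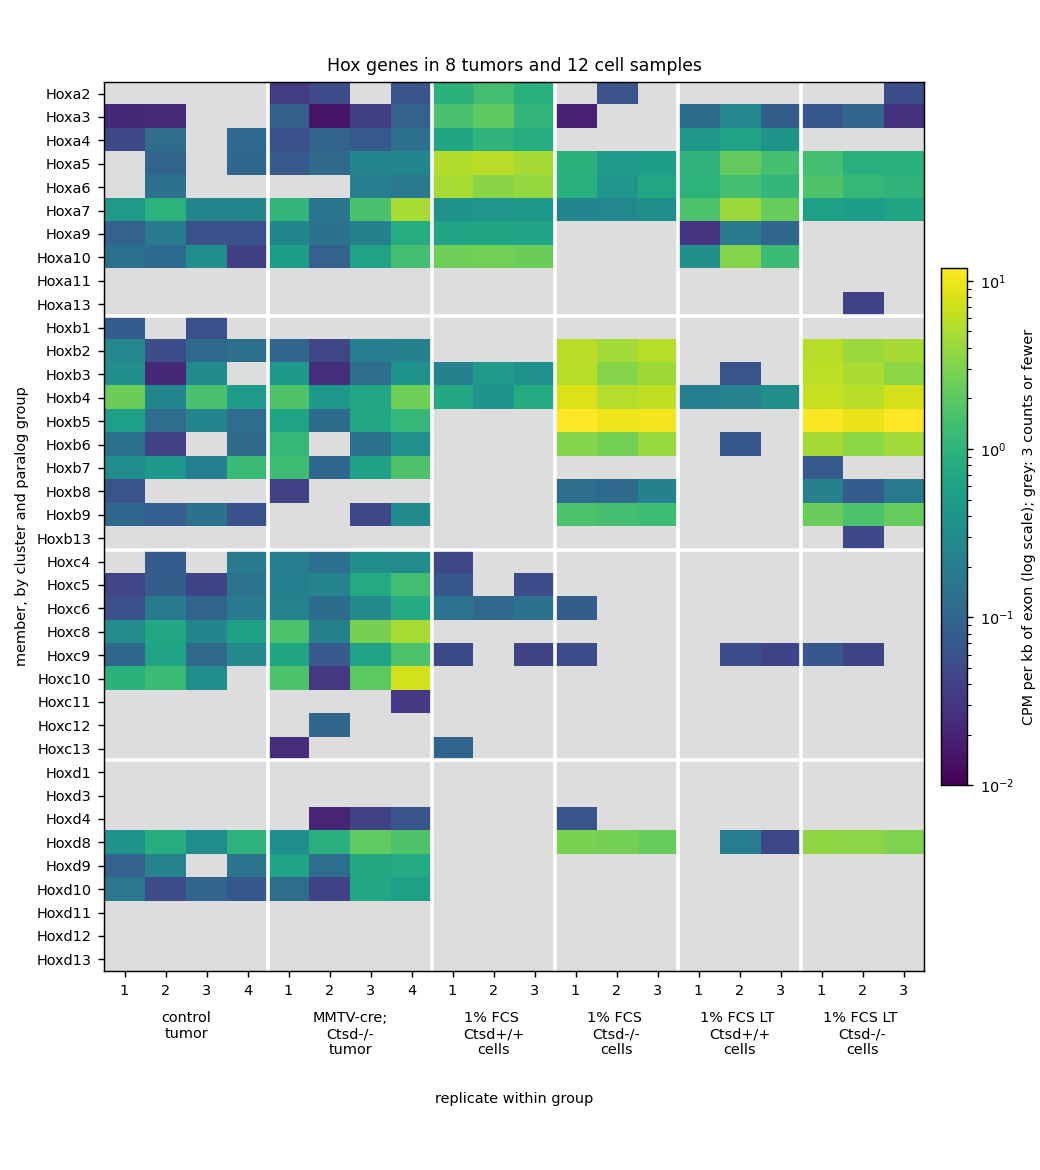
Level of each of the 38 Hox genes (rows, by cluster and paralog number) in each of the 20 samples (columns, by group), as CPM per kb of exon on a log color scale, with grey for 3 counts or fewer. Cluster A is bright in Ctsd+/+ cells, and cluster B and Hoxd8 in Ctsd-/- cells. Cluster C is higher in sum in the tumors than in the cells, and in control tumors cluster B has the highest mean sum.

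Summed over its 10 members, cluster A stood at 39 ± 5.0 CPM (mean ± SD, n = 3) in 1% FCS Ctsd+/+ cells and at 2.8 ± 0.608 CPM in 1% FCS Ctsd-/- cells. In long-term culture the sums were 19.3 ± 11.2 and 5.34 ± 0.849 CPM. Cluster B ran the other way, with 3.16 ± 0.389 CPM in 1% FCS Ctsd+/+ cells, 95.5 ± 14.3 CPM in 1% FCS Ctsd-/- cells, 0.919 ± 0.251 CPM in 1% FCS LT Ctsd+/+ cells and 100.1 ± 10.4 CPM in 1% FCS LT Ctsd-/- cells. Cluster A thus held a median of 90.8% of all Hox CPM in 1% FCS Ctsd+/+ cells, and cluster B 90.2% in 1% FCS Ctsd-/- cells. Cluster D, almost all of it Hoxd8, had 7.38 ± 0.83 CPM in 1% FCS Ctsd-/- cells and 0.0503 ± 0.0459 CPM in 1% FCS Ctsd+/+ cells. Per kb of exon the highest member was Hoxa5 in 1% FCS Ctsd+/+ cells (5.23 CPM per kb), Hoxa7 in 1% FCS LT Ctsd+/+ cells (2.69), and Hoxb5 in Ctsd-/- cells (10.95 in 1% FCS and 11.4 in 1% FCS LT). Cluster C had 1.05 CPM or less in each of the 12 cell samples. In tumors the cluster shares were more even: cluster A stood at 2.8 ± 1.4 CPM in control and 10.6 ± 9.68 CPM in MMTV-cre;Ctsd-/- tumors (n = 4 each), cluster B at 6.36 ± 3.98 and 9.24 ± 6.32 CPM, cluster C at 3.96 ± 1.99 and 17.2 ± 15.3 CPM, and cluster D at 2.23 ± 1.04 and 5.49 ± 3.3 CPM. A tumor is a mixture, and fewer cells of a type and less RNA per cell cannot be told apart in these values. Tumors and cells differ in library type and run, so their levels are set side by side without a test.

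**Figure D2:**
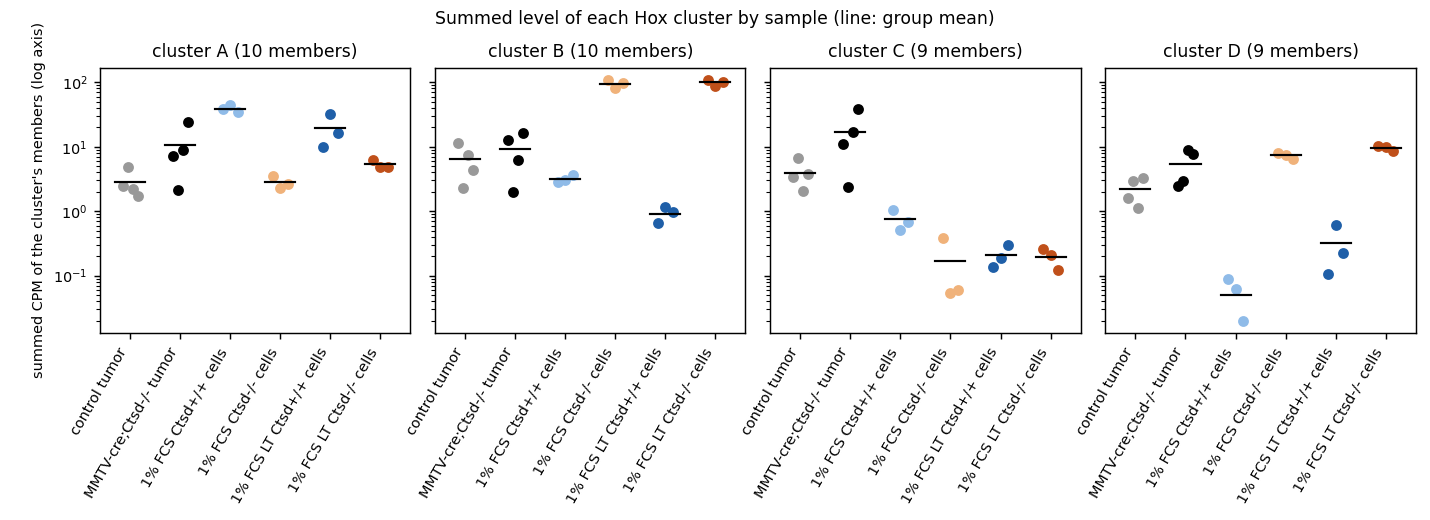
Summed CPM of the members of each Hox cluster in each sample (points) with the group mean (line), on a log axis, for the 6 groups. Clusters A and B trade places between Ctsd+/+ and Ctsd-/- cells, and cluster C is higher in the tumors than in the cells.

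Promoter sequences of RefSeq on GRCm38.p6, taken as the 250 bases before the annotated start, matched 22 of the 38 members with 24 starts. One is shown for a member with high levels in each line's pattern: Hoxb4 of cluster B (chr11:96318017-96318266, plus strand), Hoxd8 of cluster D (chr2:74704365-74704614, plus strand), and from cluster A Hoxa5 (chr6:52204588-52204837, minus strand), which was detected in both lines, and Hoxa10 (chr6:52234940-52235189, minus strand, 1 of its annotated starts), which was expressed in the Ctsd+/+ line and at the floor in the Ctsd-/- line. Capitals mark a CCAAT box or a TATA box (TATAAA), read on either strand, and no marked sites overlap.
Hoxb4: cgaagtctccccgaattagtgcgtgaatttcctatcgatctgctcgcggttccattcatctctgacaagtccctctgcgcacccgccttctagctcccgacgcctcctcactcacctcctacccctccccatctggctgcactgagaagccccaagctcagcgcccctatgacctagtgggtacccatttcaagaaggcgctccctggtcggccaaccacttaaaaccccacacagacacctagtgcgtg
Hoxd8: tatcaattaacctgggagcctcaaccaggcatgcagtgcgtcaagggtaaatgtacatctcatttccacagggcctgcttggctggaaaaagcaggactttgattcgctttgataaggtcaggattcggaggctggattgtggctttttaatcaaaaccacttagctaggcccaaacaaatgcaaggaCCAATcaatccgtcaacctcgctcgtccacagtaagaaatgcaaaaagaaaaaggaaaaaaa
Hoxa5: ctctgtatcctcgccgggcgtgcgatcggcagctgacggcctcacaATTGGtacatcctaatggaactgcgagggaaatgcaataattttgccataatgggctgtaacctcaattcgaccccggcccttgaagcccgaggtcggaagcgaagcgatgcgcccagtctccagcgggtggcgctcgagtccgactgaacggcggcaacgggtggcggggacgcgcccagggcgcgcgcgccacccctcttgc
Hoxa10: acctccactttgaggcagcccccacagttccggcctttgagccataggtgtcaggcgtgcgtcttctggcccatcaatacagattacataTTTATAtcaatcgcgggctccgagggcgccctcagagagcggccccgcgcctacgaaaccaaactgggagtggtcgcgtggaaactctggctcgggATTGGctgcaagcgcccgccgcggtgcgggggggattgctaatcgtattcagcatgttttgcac
A CCAAT box was present in 14 of the 24 Hox promoters, against 33.9% of 32841 mouse promoters of the same length, and TATAAA in 4 of the 24, against 12.4%. The site TGATNNAT, the shape bound by a Hox protein with its partner PBX, was present in 4 of the 24 (Hoxa2, Hoxb1, Hoxb8 and Hoxd11), against 7.69% of all, and the homeodomain core TAATTA in 2, both of Hoxd11, against 4.84%. The cyclic AMP response element TGACGTCA was present in 0 of the 24, against 1.55%, and each motif was searched on both strands. The median Hox promoter had 12.5 CpG dinucleotides and 58.6% G and C, against 6.0 CpG and 52.4% in all promoters. Among the printed sequences Hoxa5 has 28 CpG, Hoxa10 20, Hoxb4 14 and Hoxd8 6. A match in these windows is a description of letters and not of binding.

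In 1% FCS culture Ctsd-/- cells had more cluster B RNA and Hoxd8 RNA and less cluster A RNA than Ctsd+/+ cells. Of 38 members 16 passed the filter on low counts. By edgeR's quasi-likelihood test with an adjusted p under 0.05, Ctsd-/- cells were higher in 8 of them, where 23.5% of all 15178 genes tested were higher. They were lower in 7, where 25.1% of all genes tested were lower. For 9 of the 16 members 1 line was at the floor, so that they passed the filter only through the other line and had to differ, and the counts describe the lines and are no test of the module. The median log2 fold change over the 16 was 1.44 as fitted and 0.83 with members at the floor set to their bound, against 0.00 over all genes.

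The higher members were led by Hoxb5, a gene of lung and shoulder patterning. It had 33.9, 27.8 and 29.9 CPM in the 3 Ctsd-/- samples and no count in any Ctsd+/+ sample, which makes it at least 333-fold higher against 3 counts in the smallest Ctsd+/+ library (edgeR adjusted p = 1.19e-08). Hoxb2, which sets hindbrain segment identity, had 19.9, 15.8 and 19.6 CPM against 0, 0 and 0.0262 CPM and was at least 202-fold higher (edgeR adjusted p = 1.35e-07). Both were thus present in every Ctsd-/- sample and at the floor in every Ctsd+/+ sample. Hoxb6 had 6.4, 5.34 and 7.86 CPM against 0, 0.0305 and 0 CPM, at least 71.3-fold higher. Hoxb9, which acts with its paralogs in mammary gland development, had 4.16, 3.81 and 3.46 CPM against 0, 0 and 0.0262 CPM, at least 41.6-fold higher. Hoxd8 had 7.86, 7.45 and 6.41 CPM against 0.060, 0.0611 and 0 CPM, at least 79.1-fold higher (edgeR adjusted p = 1.21e-05). The Ctsd+/+ line was not silent at the whole of cluster B. Hoxb3, a hindbrain gene, had 0.959, 2.08 and 1.52 CPM in Ctsd+/+ against 23.7, 14 and 18.3 CPM in Ctsd-/- cells, a log2 fold change of 3.62 ± 0.48 (SE). Hoxb4, known for expanding blood stem cells, had 1.86, 0.977 and 2.01 CPM and 21.1, 14 and 15.8 CPM, a log2 fold change of 3.39 ± 0.29 (edgeR adjusted p = 3.29e-06). The groups did not overlap for either gene. Hoxb8 was low in Ctsd-/- cells (0.341, 0.301 and 0.591 CPM) and had no count in Ctsd+/+ cells, at least 4.49-fold higher. Hoxb7, which lies between Hoxb6 and Hoxb8, was at the floor in both lines, as were Hoxb1 and Hoxb13 at the ends of the cluster.

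The lower members were all of cluster A. Hoxa9, a gene of blood cell self-renewal and leukemia, had 3.51, 3.63 and 3.51 CPM in Ctsd+/+ cells and no count in Ctsd-/- cells, at least 40.0-fold lower (edgeR adjusted p = 0.000145). Hoxa10, which patterns the uterus, had 8.15, 8.79 and 7.9 CPM against 0.0243, 0.0274 and 0 CPM and was at least 93.4-fold lower. Hoxa4 had 1.02, 1.59 and 1.28 CPM and no count in Ctsd-/- cells, at least 14.6-fold lower. These 3 were detected in every Ctsd+/+ sample and at the floor in every Ctsd-/- sample. Hoxa3, needed for thymus and parathyroid, had 9.35, 12.3 and 6.38 CPM against 0.122, 0.0821 and 0.0295 CPM, a log2 fold change of -6.81 ± 0.66 (edgeR adjusted p = 7.96e-06). Hoxa2, which patterns the second pharyngeal arch, had 1.68, 2.66 and 1.6 CPM against 0.0486, 0.11 and 0 CPM, a log2 fold change of -5.12 ± 0.67. Cluster A was not empty in Ctsd-/- cells. Hoxa5, which patterns the lung and is expressed in mammary epithelium, kept 1.78, 0.931 and 1.0 CPM against 9.98, 10.8 and 8.63 CPM, 7.94-fold lower (log2 fold change -2.98 ± 0.35). Its neighbor Hoxa6 kept 0.778, 0.356 and 0.621 CPM against 4.17, 2.99 and 3.43 CPM, 6.03-fold lower (log2 fold change -2.58 ± 0.34). Hoxa7 had 1.11, 1.19 and 1.26 CPM in Ctsd+/+ against 0.73, 0.794 and 0.975 CPM in Ctsd-/- cells and did not pass the test (log2 fold change -0.51 ± 0.33, edgeR adjusted p = 0.226). No member of cluster C passed the filter. The most abundant of them in cells, Hoxc6, had 0.36, 0.275 and 0.34 CPM in Ctsd+/+ against 0.195, 0.0274 and 0.0591 CPM in Ctsd-/- cells.

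**Figure D3:**
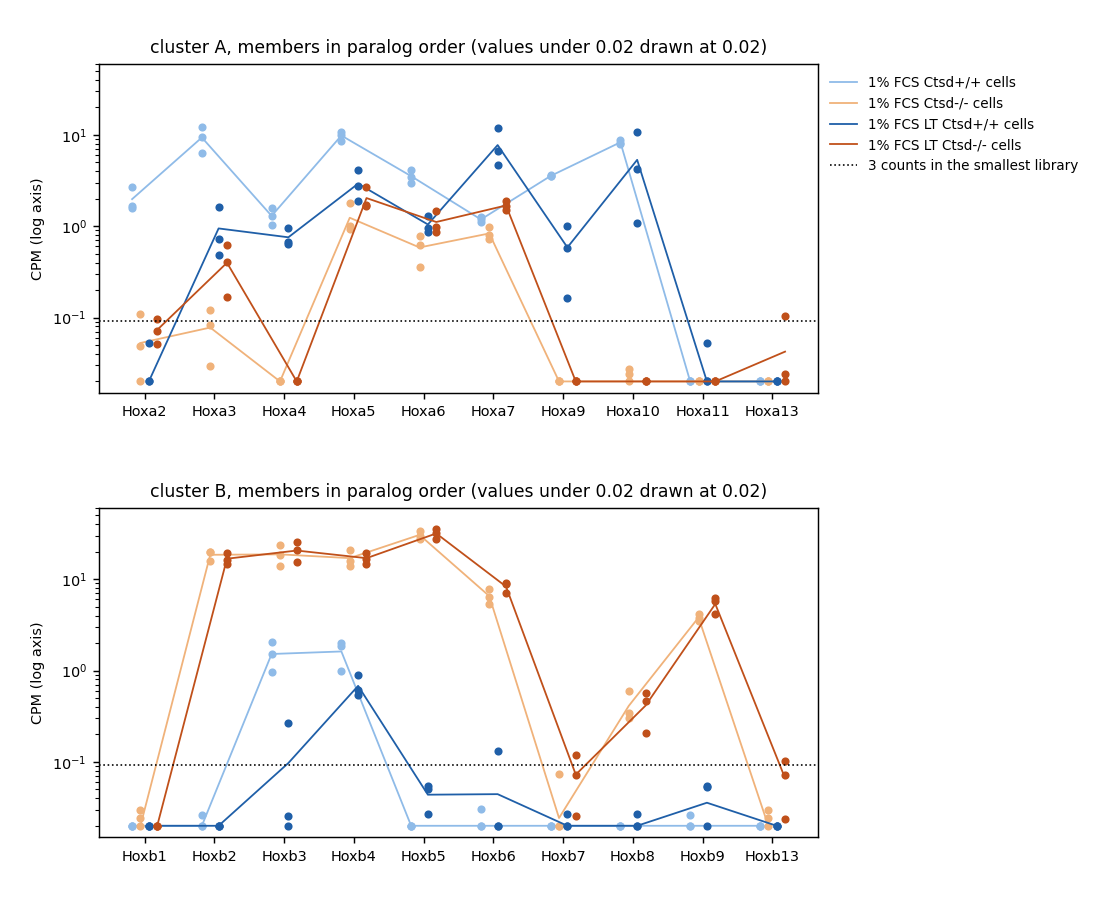
CPM of each member of cluster A (top) and cluster B (bottom) in the 3 samples of each cell group (points, log axis, values under 0.02 drawn at 0.02) with lines through the group means and a dotted line at 3 counts in the smallest library. The Ctsd-/- line is high from Hoxb2 to Hoxb6 and at Hoxb9 in both cultures. The Ctsd+/+ line was called higher from Hoxa2 to Hoxa6 and at Hoxa9 and Hoxa10 after 10 days. After 12 weeks it was called higher at Hoxa4, Hoxa7, Hoxa9 and Hoxa10, with Hoxa10 uneven across its samples.

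The 1% FCS Ctsd+/+ samples also stood apart in markers of other cell types. The summed CPM of 10 fibroblast or mesenchyme markers lay between 1276 and 3360 there, with Lum and Thy1 at the floor, and between 12.6 and 117 in the other 3 cell groups. Col1a1, Pdgfrb and Col3a1 led that sum, with means of 1436, 468 and 107 CPM. Dcn and Col1a2 were low, with means of 0.742 and 2.26 CPM. Of 7 markers tested 6 were called lower in 1% FCS Ctsd-/- cells, where 25.1% of all genes were. Twist1 was not called, with means of 14.3 CPM in Ctsd+/+ and 13.5 CPM in Ctsd-/- cells. The summed CPM of 8 luminal epithelial markers lay between 1021 and 2440 in the 1% FCS Ctsd+/+ samples, and between 7301 and 15910 in the other 3 cell groups. Of 7 adipocyte markers, Adipoq, Plin1, Cidec and Lep were at the floor in all 4 cell groups. Of the rest, Lipe lay between 7.48 and 33.4 CPM in the cell samples and Plin4 at 0.24 CPM or less. Fabp4 reached 1.84 CPM in 1% FCS LT Ctsd-/- cells. Fabp4 was called higher in Ctsd-/- cells in both cultures, and Lipe in 1% FCS only. The part of these differences in the Hox values of 1% FCS culture was not tested. In 1% FCS LT culture the mesenchyme sums of both lines were 117 or less. The cluster B sums there were 0.919 ± 0.251 CPM in Ctsd+/+ and 100.1 ± 10.4 CPM in Ctsd-/- cells. The cluster A sums were 19.3 ± 11.2 and 5.34 ± 0.849 CPM, and Hoxa2, Hoxa3, Hoxa5 and Hoxa6 were not called. In the Ctsd+/+ line marker levels and culture time changed together, so that their parts cannot be told apart.

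In 1% FCS LT culture the lines differed at 12 of the same 16 members. Ctsd-/- cells were higher in 8, the same 8 as in 1% FCS culture, where 20.5% of all genes tested were higher, and lower in 4, where 19.1% were lower. For 8 of the 16 members 1 line was at the floor, so these counts too are a description and no test of the module. The median log2 fold change was 3.26 as fitted and 1.22 with bounds, against 0.01 over all genes. Hoxb5 had 32.1, 27.3 and 35.5 CPM in Ctsd-/- cells against 0.054, 0.0266 and 0.0507 CPM in Ctsd+/+ cells, at least 391-fold higher. Hoxb2 had 19.5, 14.6 and 16.1 CPM and no count in Ctsd+/+ cells, at least 207-fold higher (edgeR adjusted p = 2.41e-07). Hoxb9 had 6.17, 4.12 and 5.75 CPM against 0.054, 0.0532 and 0 CPM, at least 66.0-fold higher. As in 1% FCS culture, these 3 were at the floor in every Ctsd+/+ sample. Hoxb3 had 25.4, 20.9 and 15.4 CPM against 0, 0.266 and 0.0253 CPM, a log2 fold change of 7.69 ± 0.64 (edgeR adjusted p = 4.60e-06). Hoxb6 had 9.0, 7.08 and 8.83 CPM against 0, 0.133 and 0 CPM, a log2 fold change of 7.46 ± 0.66. Hoxb4 had 16.7, 14.7 and 19.6 CPM against 0.54, 0.612 and 0.887 CPM, a log2 fold change of 4.63 ± 0.31. No Ctsd+/+ sample reached a Ctsd-/- sample in any of these genes. Hoxd8 had 10.1, 9.7 and 8.39 CPM against 0.027, 0.532 and 0.127 CPM, a log2 fold change of 5.34 ± 0.61, and its highest Ctsd+/+ value was that of replicate 2. Hoxb8 remained low in Ctsd-/- cells (0.574, 0.206 and 0.459 CPM, at least 5.10-fold higher).

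The lower members in long-term culture were Hoxa4, Hoxa7, Hoxa9 and Hoxa10. Hoxa10 had 1.08, 10.7 and 4.21 CPM in Ctsd+/+ cells and no count in Ctsd-/- cells, at least 68.9-fold lower (edgeR adjusted p = 0.000174). Hoxa4 had 0.675, 0.959 and 0.633 CPM and Hoxa9 0.162, 1.01 and 0.583 CPM in Ctsd+/+ cells, again with no count in Ctsd-/- cells, at least 9.79-fold and 7.58-fold lower. Of the Ctsd+/+ replicates, replicate 2 was the highest and replicate 1 the lowest for Hoxa9 and Hoxa10. Hoxa7 had 4.62, 12 and 6.59 CPM against 1.65, 1.49 and 1.91 CPM, a log2 fold change of -2.19 ± 0.32 (edgeR adjusted p = 0.000231). Hoxa2, Hoxa3, Hoxa5 and Hoxa6 did not pass the test. Hoxa5 had 1.86, 4.13 and 2.76 CPM in Ctsd+/+ against 2.7, 1.67 and 1.72 CPM in Ctsd-/- cells, and Hoxa6 0.864, 1.3 and 0.963 and 1.48, 0.978 and 0.871 CPM, with overlapping groups.

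Within the Ctsd-/- line, cluster B levels after 12 weeks lay near those after 10 days of starvation. The cluster A sum was higher, at 5.34 ± 0.849 CPM after 12 weeks against 2.8 ± 0.608 CPM after 10 days (n = 3 each). Its lowest sample after 12 weeks, 4.79 CPM, lay above the highest after 10 days, 3.48 CPM. None of the 16 members passed an adjusted p under 0.05 by edgeR in either direction, where 1.57% of all genes tested were higher and 0.810% lower. With shares this low, a count of 0 among 16 is near that of all genes and is no sign of stable levels. At an unadjusted p under 0.05 there were 3: Hoxa3 with a log2 fold change of 2.26 ± 0.70, Hoxa6 with 0.92 ± 0.34 and Hoxa7 with 1.02 ± 0.33. Hoxa3 passed the adjusted test under DESeq2, without the filter on low counts and with a replicate block, with 5, 3 and 1 counts after 10 days and 17, 24 and 7 after 12 weeks. For the abundant cluster B genes the fitted differences were under 0.2: Hoxb5 had a log2 fold change of 0.05 ± 0.15, Hoxb4 -0.00 ± 0.26 and Hoxb2 -0.14 ± 0.21. Across the 38 members the correlation of log2(mean CPM + 1) between these 2 Ctsd-/- groups was r = 0.994, against 0.996 over all genes. The same measure was 0.73 between the 2 Ctsd+/+ groups, against 0.97 over all genes, and 0.0263 between the lines in 1% FCS and 0.0786 in 1% FCS LT, against 0.965 and 0.979 over all genes. These are descriptions across genes of shared clusters, which are not independent. The values over all genes take in all 45706 genes counted, with no matching of level, and are no like baseline for the 38 members.

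Within the Ctsd+/+ line, 10 members passed the test between the culture times. In 1% FCS LT 3 were higher, where 23.0% of all genes tested were higher, and 7 were lower, where 23.4% were lower. Hoxa7 rose from 1.11, 1.19 and 1.26 CPM to 4.62, 12 and 6.59 CPM, a log2 fold change of 2.70 ± 0.33 (edgeR adjusted p = 5.00e-05). Several of its neighbors fell. Hoxa2 went from 1.68, 2.66 and 1.6 CPM to 0, 0.0532 and 0 CPM, at least 24.4-fold lower (edgeR adjusted p = 4.11e-05). Hoxa3 fell by 3.30 on the log2 scale, from 9.35, 12.3 and 6.38 CPM to 0.729, 1.62 and 0.481 CPM. Hoxa9 fell by 2.59, Hoxa6 by 1.75 and Hoxa5 by 1.75 on the log2 scale. Hoxa10, which had 8.15, 8.79 and 7.9 CPM after 10 days and 1.08, 10.7 and 4.21 CPM after 12 weeks, did not pass the test (log2 fold change -0.64 ± 0.61), nor did Hoxa4 (-0.78 ± 0.34). In cluster B, Hoxb3 fell by 3.93 and Hoxb4 by 1.25 on the log2 scale. The other higher members were Hoxb5 and Hoxd8. Hoxb5 was at the floor in both groups, with 0 counts in each 1% FCS sample and 2, 1 and 2 counts after 12 weeks. Hoxd8 had 2, 2 and 0 and 1, 20 and 5 counts, with overlapping groups. Leaving out any 1 of the 12 cell samples left 1 or 2 members higher, with Hoxa7 among them each time and alone without any 1 of the 1% FCS Ctsd+/+ samples.

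The genotype difference itself changed between the cultures for 8 members. It was more positive in 1% FCS LT for 6 (Hoxa2, Hoxa3, Hoxa5, Hoxa6, Hoxb3 and Hoxb4), where 16.1% of all genes tested were, and more negative for 2 (Hoxa7 and Hoxb5), where 14.1% were. The change was 5.57 ± 0.85 on the log2 scale for Hoxa3 (edgeR adjusted p = 0.000527), 2.67 ± 0.47 for Hoxa6, 2.46 ± 0.48 for Hoxa5, 4.07 ± 0.80 for Hoxb3 and 1.25 ± 0.40 for Hoxb4. All 6 were lower after 12 weeks in Ctsd+/+ cells, and none of them passed the test between the culture times in the Ctsd-/- line. For Hoxa7 the change was -1.68 ± 0.46 (edgeR adjusted p = 0.0159), where the Ctsd+/+ level was the one that rose. The fitted changes of Hoxa2 (7.0) and Hoxb5 (-3.78) rest on groups at the floor and are no measure of size.

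The cell libraries were stranded, so reads on the strand opposite to a gene could be counted apart. Over all genes 2.71% to 2.91% of reads lay on the opposite strand. For Hoxb3 the 3 samples of 1% FCS Ctsd-/- cells had 115, 80 and 95 such reads, 12.1% of its total, and those of 1% FCS LT Ctsd-/- cells had 72, 57 and 81, 7.72% of its total. In Ctsd+/+ cells Hoxb3 had 6 opposite reads in 1% FCS and 0 in 1% FCS LT. The annotated antisense gene Hoxb3os overlaps Hoxb3, so the same transcripts can give both counts. Hoxb3os had 3.21, 2.49 and 2.96 CPM in 1% FCS Ctsd-/- cells against 0.12, 0.0611 and 0.0785 CPM in 1% FCS Ctsd+/+ cells (edgeR adjusted p = 3.36e-06). At Hoxb7 the opposite strand held more reads than the gene itself in Ctsd-/- cells, with 21 against 3 in 1% FCS and 42 against 9 in 1% FCS LT. At Hoxa2 in 1% FCS LT Ctsd+/+ cells it held 33 against 2.

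Of 48 noncoding or unnamed genes inside the clusters 10 passed the filter in cells. In 1% FCS 3 of the 10 were higher in Ctsd-/- cells (Hoxb3os, Hoxb5os and Hoxd3os1), where 23.5% of all genes were, and 1 was lower (Hoxaas3), where 25.1% were. Each lies in the cluster whose members moved the same way. Hoxb5os reached 0.73, 1.21 and 1.24 CPM in 1% FCS Ctsd-/- cells, with no count in Ctsd+/+ cells of either culture. Hoxd3os1 had 1.14, 0.411 and 0.887 CPM and likewise no count in 1% FCS Ctsd+/+ cells, so that both passed the filter through the Ctsd-/- line. Hoxaas3, which overlaps Hoxa3 and Hoxa7, had 0.21, 0.336 and 0.34 CPM in 1% FCS Ctsd+/+ cells and at most 1 count in 1% FCS Ctsd-/- samples. In 1% FCS LT the same 3 were higher and none of the 10 was lower at an adjusted p under 0.05 by edgeR, with 4 in all at an unadjusted p under 0.05. Of the 40 nearest protein-coding neighbors 34 were tested, and in 1% FCS 9 were higher and 3 lower in Ctsd-/- cells, where 23.5% and 25.1% of all genes were. There were again 9 and 3 in 1% FCS LT, where 20.5% and 19.1% of all genes were. In 1% FCS Nfe2l3, a transcription factor gene beside cluster A, was higher in the Ctsd-/- line (log2 fold change 3.21 ± 0.23), and Copz2, a coat protein gene beside cluster B, was lower (-3.36 ± 0.24), each opposite to its cluster. Neither was called in 1% FCS LT, with log2 fold changes of -0.22 ± 0.21 and -0.06 ± 0.22.

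In tumors the Hox genes were low, and the MMTV-cre;Ctsd-/- group was higher at the threshold that the study's methods give for tumors, an unadjusted p under 0.1. Of 20 members tested 11 were higher and 0 lower, where 8.44% of all 18617 genes tested were higher and 8.27% lower. The median log2 fold change of the 20 was 1.80, against 0.00 over all genes. With adjustment over all genes none of the 20 passed 0.05 by edgeR, where 0.00537% of all genes tested did (1 gene). At an unadjusted p under 0.05 there were 7, for which no share of all genes at that threshold is given here. By cluster, 3 of the 4 tested members of cluster A were called, 2 of 7 of cluster B, 4 of 6 of cluster C and 2 of 3 of cluster D.

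Hoxc5 was the only called member whose groups did not overlap, with 0.136, 0.247, 0.133 and 0.456 CPM in the control tumors and 0.653, 0.753, 2.33 and 4.28 CPM in the MMTV-cre;Ctsd-/- tumors (log2 fold change 3.06 ± 0.72, edgeR adjusted p = 0.361). Hoxc8, which in fat precursors holds down the brown fat program, had 0.874, 1.91, 0.729 and 1.57 CPM against 4.55, 0.615, 7.89 and 13.5 CPM (log2 fold change 2.38 ± 0.74, edgeR adjusted p = 0.47). Its second MMTV-cre;Ctsd-/- tumor lay below all 4 control tumors, and the other 3 lay above them. Hoxc4 had 0.0452, 0.201, 0 and 0.482 CPM against 0.501, 0.338, 0.853 and 0.779 CPM, a log2 fold change of 1.81 ± 0.94. Hoxc6 had 0.136, 0.463, 0.232 and 0.456 CPM against 0.577, 0.292, 0.703 and 1.87 CPM, a log2 fold change of 1.42 ± 0.66. Both overlapped between the groups. Hoxc9 and Hoxc10 were not called. Hoxc9 had 0.256, 1.53, 0.282 and 0.684 CPM against 1.56, 0.184, 1.44 and 3.86 CPM. Hoxc10, a gene of white fat and of the lumbar region, had 1.84, 2.39, 0.613 and 0 CPM against 3.1, 0.0615, 3.83 and 14 CPM, a log2 fold change of 2.10 ± 1.28 whose tumors spread from no count to 844 counts.

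In cluster A, Hoxa7 had 1.28, 2.79, 0.729 and 0.735 CPM in the control tumors and 3.1, 0.461, 4.47 and 13.8 CPM in the MMTV-cre;Ctsd-/- tumors, a log2 fold change of 1.97 ± 0.84. Hoxa9 had 0.512, 1.02, 0.331 and 0.33 CPM against 1.4, 0.815, 1.27 and 4.51 CPM (1.85 ± 0.62). Hoxa10 had 0.437, 0.386, 1.06 and 0.127 CPM against 1.75, 0.307, 2.02 and 4.66 CPM (2.10 ± 0.79). In each of these 3 the fourth MMTV-cre;Ctsd-/- tumor was the highest of the 8. In cluster B, Hoxb5 had 1.52, 0.355, 0.729 and 0.355 CPM against 1.69, 0.338, 1.93 and 3.1 CPM, a log2 fold change of 1.24 ± 0.68. Hoxb6 had 0.271, 0.0771, 0.0497 and 0.228 CPM against 2.19, 0.0154, 0.269 and 0.713 CPM (2.35 ± 1.09), with the first tumor highest. Hoxb4, the most abundant member per kb in control tumors, was not called, with 6.27, 0.663, 4.06 and 1.27 CPM against 4.39, 1.14, 1.75 and 6.49 CPM. In cluster D, the limb genes Hoxd9 and Hoxd10 were called. Hoxd9 had 0.196, 0.509, 0.0331 and 0.33 CPM against 1.32, 0.277, 1.6 and 1.68 CPM (2.19 ± 0.77), and Hoxd10 0.301, 0.0926, 0.182 and 0.127 CPM against 0.228, 0.0768, 1.3 and 1.03 CPM (1.88 ± 0.83). Hoxd8 had 1.02, 2.28, 0.862 and 2.69 CPM against 0.896, 2.49, 5.91 and 4.69 CPM and was not called. The adjusted p of the 11 called members lay between 0.361 and 0.594 by edgeR. In cells, Hoxc5, Hoxc8, Hoxc9, Hoxc10, Hoxd9 and Hoxd10 had 7 counts or fewer in each sample.

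The higher levels were uneven across the MMTV-cre;Ctsd-/- tumors. Summed over all 38 members, the control tumors had 18.8, 16.9, 12.6 and 13.1 CPM and the MMTV-cre;Ctsd-/- tumors 33.2, 9.4, 41.2 and 86.5 CPM. The fourth MMTV-cre;Ctsd-/- tumor was the highest of the 8 for 8 of the 11 called members and among the 2 highest for all 11. The third was among the 2 highest for 9, and the second for 0. Without the fourth tumor 6 members were higher and 1, Hoxb9, was lower. Within the MMTV-cre;Ctsd-/- tumors the adipocyte marker sums had the same order as the Hox sums, and within the control tumors they did not. The summed CPM of the 7 adipocyte markers was 319.9, 997.6, 233 and 2196 in the control tumors and 2933, 1167, 7185 and 11850 in the MMTV-cre;Ctsd-/- tumors, and 7 of 7 were called higher. Without MMTV-cre;Ctsd-/- tumors 3 and 4, the higher members were 2, Hoxb6 and Hoxc5. With the adipocyte markers as a covariate 0 members were higher and 1, Hoxb9, was lower. These markers differ between the genotypes, so that this fit cannot separate them from genotype. The shares of all genes called in these refits are not given here, so their counts are no measure of the part of fat. Of 4 endothelial markers 3 were called higher, of 10 fibroblast or mesenchyme markers 2, and of 8 luminal epithelial markers 0. Of 6 basal epithelial markers 2 were called higher, of 5 leukocyte markers 1, and of 4 skeletal muscle markers 0. Over all genes tested 8.44% were called higher, and no marker of these lists was called lower. The part of fat or stroma in the Hox values was not tested.

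**Figure D4:**
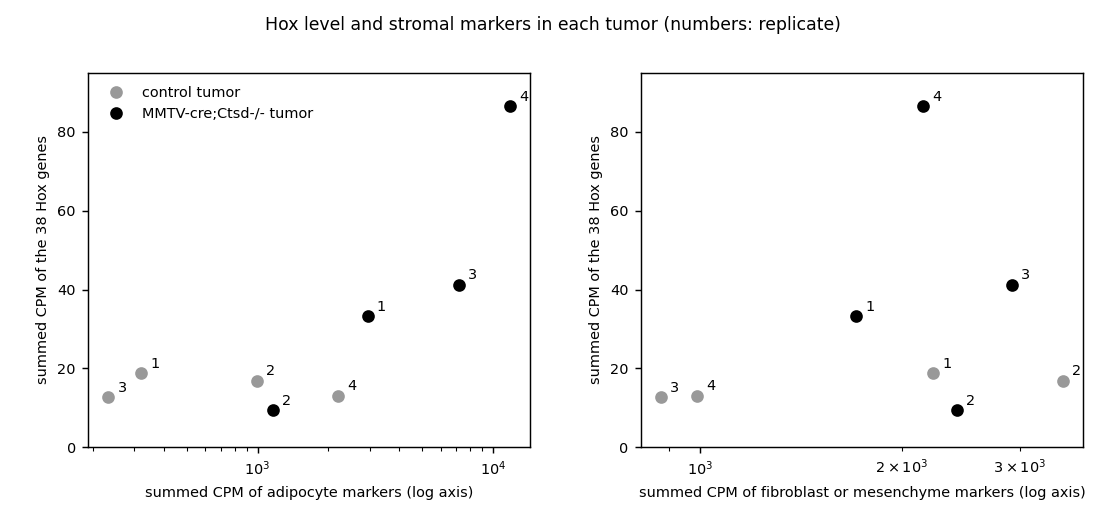
Summed CPM of the 38 Hox genes in each tumor (y axis, linear) against the summed CPM of adipocyte markers (left) and of fibroblast or mesenchyme markers (right), with log x axes and the replicate number beside each point. The tumors with the highest Hox sums, 86.5 and 41.2 CPM, are the MMTV-cre;Ctsd-/- tumors with the highest adipocyte sums, 11850 and 7185 CPM.

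**Figure D5:**
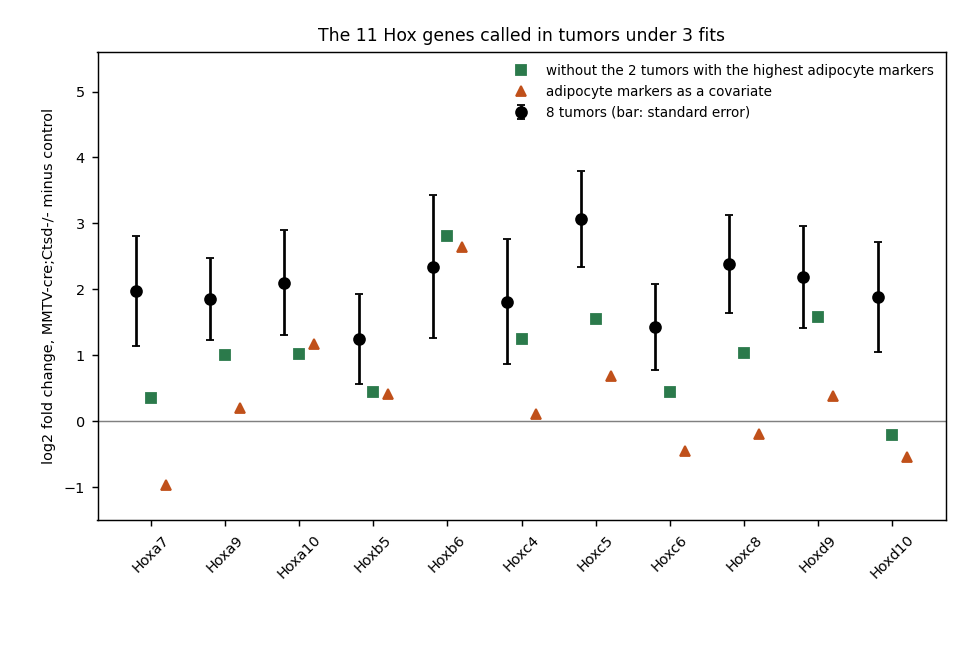
Log2 fold change of the 11 Hox genes called in tumors in the fit of all 8 tumors (circles, bars are standard errors), without the 2 tumors with the highest adipocyte markers (squares) and with adipocyte markers as a covariate (triangles). With the covariate 4 of the 11 fall below 0, and Hoxb6 stays above 2 in all 3 fits.

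Hox proteins bind DNA with partners of the PBX, MEIS and PKNOX families, and all 9 partner genes were tested. In 1% FCS 4 of the 9 were lower in Ctsd-/- cells, where 25.1% of all genes were, and 0 higher, where 23.5% were, with 6 in all at an unadjusted p under 0.05. Meis2 had 28.8, 26 and 22.1 CPM in 1% FCS Ctsd+/+ cells against 5.76, 4.24 and 4.73 CPM in 1% FCS Ctsd-/- cells, a log2 fold change of -2.38 ± 0.21 (edgeR adjusted p = 4.28e-06). Meis1 had 10.5, 9.86 and 10.3 CPM against 4.62, 4.0 and 3.55 CPM (-1.33 ± 0.17), Pbx3 had a log2 fold change of -1.02 ± 0.20, and Pknox2, which had 7.4, 3.05 and 1.07 CPM in Ctsd+/+ samples, one of -4.18 ± 0.93. In 1% FCS LT 1 of the 9 was called, Meis3, higher in Ctsd-/- cells by 1.25 ± 0.37, where 20.5% of all genes were higher and 19.1% lower. The genotype difference changed between the cultures for 5 of the 9, all toward higher values in 1% FCS LT, where 16.1% of all genes changed that way, with Meis2 at 2.27 ± 0.29. In tumors 1 was called, Meis2, higher at 1.34 ± 0.59 (edgeR adjusted p = 0.555), where 8.44% of all genes tested were higher.

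Of 27 genes of the Polycomb complexes, which keep Hox genes silent, all were tested, and 7 were higher and 4 lower in Ctsd-/- cells in 1% FCS, where 23.5% and 25.1% of all genes were, and 6 and 6 in 1% FCS LT, where 20.5% and 19.1% were. Phf19, a Polycomb partner that reads active chromatin marks, had 34.4, 18.1 and 29.9 CPM in 1% FCS Ctsd+/+ cells against 1.97, 1.75 and 1.95 CPM in 1% FCS Ctsd-/- cells, a log2 fold change of -3.86 ± 0.56 (edgeR adjusted p = 0.000158). After 12 weeks Phf19 had 17.4, 18.9 and 8.62 CPM in Ctsd+/+ against 14.3, 7.62 and 2.42 CPM in Ctsd-/- cells. Pcgf5 and Pcgf6 were higher in 1% FCS (log2 fold changes 1.38 ± 0.15 and 1.26 ± 0.14), and in 1% FCS LT Cbx2 was lower (-1.52 ± 0.22) and Rnf2, the ubiquitin ligase of Polycomb complex 1, was higher (1.02 ± 0.11). Of 13 trithorax and other activator or insulator genes tested, out of 16, 3 were higher and 3 lower in 1% FCS, near the same shares of all genes. In 1% FCS LT 2 were higher, Kmt2a and the demethylase gene Kdm6a, and 1 lower, Psip1, where 20.5% and 19.1% of all genes were. No gene of either list was called between the culture times of the Ctsd-/- line by edgeR's adjusted p. Over all genes tested only 1.57% were higher and 0.810% lower there, so that this count is near the share of all genes. At an unadjusted p under 0.05 there were 5 Polycomb and 2 trithorax genes. In tumors 2 of the 27 Polycomb genes were higher and 1 lower, and of the 13 others 0 were higher and 1 lower. Over all genes tested in tumors 8.44% were higher and 8.27% lower.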

How the data were processed

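RNA was measured by RNA sequencing in 8 tumors and 12 cell samples. The authors trimmed reads with Trimmomatic, aligned them with STAR to mm10 according to the submitters' notes, and deposited whole-number counts of reads per gene for each sample, without normalization. For tumors the deposited counts regardless of strand were used, since 52.8% to 53.7% of stranded counts lay on 1 strand. For cells the deposited counts of the strand that held 97.1% to 97.3% were used. Unstranded counting drops reads that overlap a gene on either strand, so members with antisense partners, such as Hoxb3, may be undercounted in tumors. Each sample file was taken as 1 replicate. The cell samples of a group are described as independent experiments, but all come from 1 line per genotype, and p-values measure the spread between these samples only.

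Differences were tested with edgeR 4.0.16 (trimmed mean scaling, filterByExpr, quasi-likelihood test) in R 4.3.3, the tumors and the 12 cell samples in separate fits over all genes, and p-values were adjusted by Benjamini-Hochberg across every gene of the fit. Calls used an unadjusted p under 0.1 in tumors and an adjusted p under 0.05 in cells, after the thresholds of the study's methods. Counts at an unadjusted p under 0.05 are given without the share of all genes at that threshold. They are therefore no result about the listed genes. DESeq2 1.42.0 and limma 3.58.1 (voom) were alternatives, with no filter, a replicate block, and each sample left out. The fit was tested on simulated data. A group at 3 counts or fewer in every sample was at the floor, and folds against it are bounds from 3 counts in its smallest library. Such bounds cover counting error only. Replicate numbers were taken to pair samples only if every same-numbered correlation of deviations was over 0.1, which held for no pair of groups. Named genes were the 4 members of each cluster with the highest level per kb, up to 5 largest called changes in each direction of each cell comparison, and all members called in tumors, and members outside this rule were named after their values were seen. The Hox module was proposed for description, and its gene lists and tests were set, with earlier results of these data known, although the rule for its members is by gene name. Annotation was GENCODE on GRCm38, and promoters were from RefSeq on GRCm38.p6. Levels were computed with Python 3.11.15, pandas 2.3.3 and numpy 2.4.6.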

Additional observations from a re-analysis of the deposited data

Results flagged for a closer look

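In 2 of 50 groups of 4 tumors, a single tumor stood apart from the other 3 by Dixon's test, which chance flags in about 1 in 20 groups. Each group was 1 member, the sum of 1 cluster or the sum of all members, in 1 genotype. These groups share tumors and members and are not independent. Both were the fourth MMTV-cre;Ctsd-/- tumor. It had 4.51 CPM of Hoxa9, where the other 3 had 0.815 to 1.40 CPM, and 0.746 CPM of Hoxb9.

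For 8 members the difference between Ctsd-/- and Ctsd+/+ cells changed between 1% FCS and 1% FCS LT culture by the interaction term of edgeR's fit. The change, on the log2 scale, was 7.0 for Hoxa2, 5.57 for Hoxa3, 2.46 for Hoxa5, 2.67 for Hoxa6, 4.07 for Hoxb3 and 1.25 for Hoxb4. It was -1.68 for Hoxa7 and -3.78 for Hoxb5. For Hoxa2 and Hoxb5 it rests on groups at or near 0 counts.

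Reads on the strand opposite to a member, which entered no comparison between groups, stood above the level of the Ctsd+/+ cells at 4 members. Summed over the 3 samples of a group, Hoxb3 had 290 such reads in 1% FCS and 210 in 1% FCS LT Ctsd-/- cells. Hoxb6 had 23 and 22, and Hoxb7 had 21 and 42. Hoxd8 had 16 in 1% FCS LT Ctsd-/- cells. Over all genes 2.71% to 2.91% of reads lay on the opposite strand. Members with few reads in Ctsd+/+ cells can therefore stand above those cells through reads of the gene itself. For Hoxb3 the share, given above, was higher than over all genes, and for Hoxb7 the opposite strand held more reads than the gene. For Hoxb6 and Hoxd8 no such excess over the all-gene share was shown.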

How the results depend on the processing

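Between the lines in 1% FCS and in 1% FCS LT no named member lost its call under any alternative run, and leaving out single samples gave 8 to 8 members higher and 7 to 8 lower in 1% FCS, and 8 to 9 higher and 4 to 5 lower in 1% FCS LT.

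In tumors the 11 higher members became 13 with DESeq2, 8 with voom and 16 without the filter. They were 6 to 14 when single tumors were left out. The 6 were without the fourth MMTV-cre;Ctsd-/- tumor. The 0 lower members became 0 to 1 in these fits and 1 with voom. The other settings for tumors were chosen after seeing the data. With adipocyte markers as a covariate 0 members were higher and 1 was lower, and the log2 fold changes turned to -0.97 for Hoxa7, -0.46 for Hoxc6, -0.19 for Hoxc8 and -0.54 for Hoxd10. Without the 2 tumors highest in adipocyte markers 2 were higher and 1 was lower, with Hoxd10 at -0.21. With fibroblast markers as a covariate 6 were higher. The share of all genes called in each of these settings is not given here, and the cause was not tested.

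The correlations of deviations between same-numbered samples were 0.362, 0.09997 and 0.299 between the lines in 1% FCS, where replicate 1 of both lines shares a run, and lay at or below 0.1 for at least 1 number in every other pair of groups. With a replicate block 8 members were higher in tumors, and 1 (Hoxa3) in Ctsd-/- cells after 12 weeks. That count was also 1 with DESeq2 and 1 without the filter, and 0 to 0 when single samples were left out.

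In Ctsd+/+ cells the 3 members higher after 12 weeks became 1 within 1 run and 1 to 2 without single samples, and the 7 lower were 7 to 9. Of the changes in the genotype difference, the 2 negative ones became 1 with DESeq2, 0 with voom, 1 without the filter, 0 within 1 run and 1 to 2 without single samples, and the 6 positive ones 5 to 6. Depth limits members at a few counts, where a fitted fold has no fixed size.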
